A study of Homo sapiens with 2 samples.

Results

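The tRNA lookalikes and undetermined tRNA features are the entries of the tRNA annotation that carry no ordinary gene name. They were taken by name from the rows of tRNA biotype: 47 features whose name starts with tRX-, 5 starting with tRNA-Und- and 1 starting with tRNA-Sup-, 53 of 596 tRNA features and of 741078 listed features in all. They were set beside the 543 named tRNA genes, isotype by isotype. The counts come from CLIP-seq of hTrmt13 in MDA-MB-231, a human cell line from a breast carcinoma, with 2 replicates of 1 group. CLIP-seq reads the RNA that is crosslinked to a protein and purified with it by antibody. The RNA was treated with enzymes of the Alkb type before cDNA synthesis, and 0 control libraries were analysed here. Nothing in the labels ties the replicates to separate cultures, so their spread, and any p-value built on it, may be technical.

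A tRNA gene is transcribed by RNA polymerase III from promoter elements inside the gene, and its product folds into the cloverleaf that carries an amino acid to the ribosome. Genomes also hold many tRNA-like sequences, such as decayed copies and copies spread by retrotransposition. In the naming scheme used here, tRX marks a sequence that resembles the tRNAs of an isotype but scores too low or is too incomplete to be taken as a likely gene, and NNN stands where no anticodon could be read. Und marks a sequence of undetermined isotype, and Sup one whose anticodon would pair with a stop codon. hTrmt13 is the human relative of the yeast enzyme Trm13, which methylates a ribose in the acceptor stem of some tRNAs, and the stated aim of the CLIP-seq was to find the tRNAs it binds.

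Each library was sequenced from both ends, and each read mate had its own count table. Those of R2 held 11246823 and 8793089 counts in replicates 1 and 2, and those of R1 held 27907799 and 20590398. Copies of a tRNA share most of their sequence, so the count of a single locus depends on how reads with several matches were placed, which is not given in the sources used here. Of the markers of the cell line, VIM had 382 and 722 R1 counts in replicates 1 and 2, and ANXA1 had 0 and 3. All 8 mesenchymal-like markers together took 25.8 and 58.5 CPM, that is, counts scaled to the table total. Most of this came from VIM (13.7 and 35.1 CPM) and ZEB1 (8.38 and 13.7 CPM). CD44, AXL, SPARC, CAV1 and ANXA1 each lay below the epithelial gene CDH1 (1.43 and 2.48 CPM) in both replicates. The 5 epithelial genes took 3.80 and 8.30 CPM and the 5 genes of other cell types 0.573 and 1.55 CPM. Of the latter, ALB and CD3E had 0 in all 4 tables. HBB had 5 and 12 R1 counts, GFAP 2 and 13, and PTPRC 9 and 7, against 12 and 7 for CD44.

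The 53 features took a small share of the tRNA counts, and 1 of them held most of it. Their share of the tRNA counts was 0.165% and 0.151% in R2 of replicates 1 and 2. In R1 it was 2.23% in replicate 1, with a 95% interval (Clopper-Pearson) of 2.2255 to 2.2397%. It was 2.31% in replicate 2, with an interval of 2.2969 to 2.3141%, which gives a mean of 2.27% ± 0.0515 (SD, n = 2), while making up 8.89% of the tRNA features. These intervals cover counting error of PCR reads only. The tRX features took 2.27% ± 0.0511 (SD, n = 2) of the R1 tRNA counts, tRNA-Sup-TTA-1-1 took 0.00202% ± 0.000464, and the 5 tRNA-Und features 8.88e-05% ± 3.28e-05 (SD, n = 2 each). The leading feature in R2 was tRX-Leu-NNN-1-1, with 78.4% and 77.2% of the members' counts in replicates 1 and 2. In R1 it was a lysine lookalike, tRX-Lys-NNN-3-1, with 86.8% and 85.6%. With tRX-Lys-NNN-4-1, tRX-Leu-NNN-1-1 and tRX-Lys-NNN-1-1 the R1 share came to 99.8% in both replicates.

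**Figure D1:**
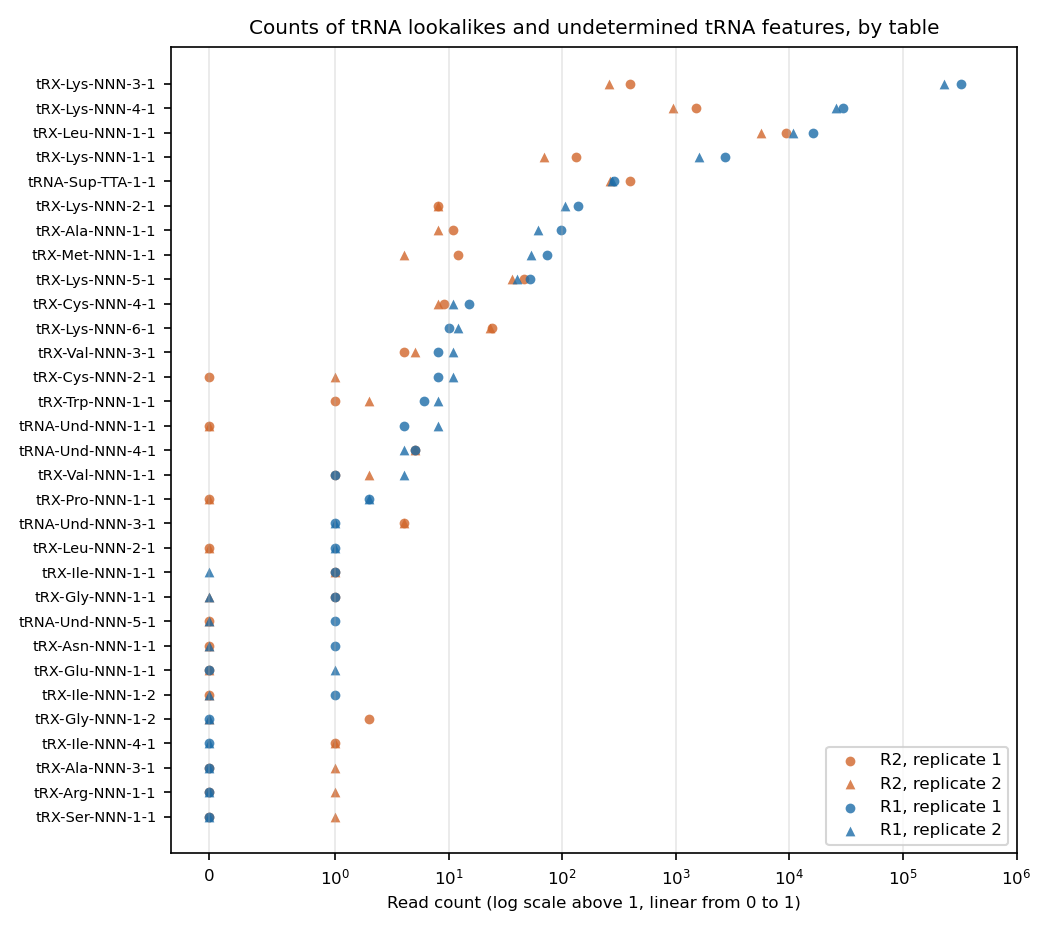
Read counts of the 31 members with at least 1 count, in the R2 tables (orange) and R1 tables (blue) of replicate 1 (circles) and replicate 2 (triangles), on an axis that is logarithmic above 1. The counts span from 1 to 324569, and for the highest members except tRX-Leu-NNN-1-1 and tRNA-Sup-TTA-1-1 the R2 counts lie far left of the R1 counts.

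Most members had few reads or none. No count was found in any of the 4 tables for 22 of the 53, which at a floor of 3 counts allows up to 0.267 and 0.341 CPM in R2 of replicates 1 and 2, and up to 0.107 and 0.146 CPM in R1. Another 19 had between 1 and 20 counts summed over the 4 tables. Only 11 reached a mean of 10 counts over the 4 tables, or 20.8% of the members, against 84.2% of the named tRNA genes (457 of 543). In R1, 55.3% of the tRX features had no count in either replicate, against 6.08% of the named genes. The 11 features above the minimum were 6 tRX-Lys features, tRX-Leu-NNN-1-1, tRX-Ala-NNN-1-1, tRX-Met-NNN-1-1, tRX-Cys-NNN-4-1 and tRNA-Sup-TTA-1-1. Every tRX-Lys feature was among them, whereas no tRX feature of arginine, the isotype with the highest named tRNA gene, was. The lookalikes of Arg, Asp, Gln, Ser and Tyr had 0 R1 counts in both replicates, over 8 features.

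The tRX features had median R1 counts of 0 in both replicates, and the named genes were split by their standing in RefSeq. Of the 543, 413 matched a RefSeq entry listed as a tRNA, 49 one listed as a pseudogene, and 81 were unmatched. Named genes listed as tRNA had a median R1 count of 4998 in replicate 1 and 3795 in replicate 2, and all 413 had a count. Those listed as pseudogenes had medians of 8 and 4, and 34.7% of them had no R1 count. The unmatched ones had medians of 8 and 4 as well, and 19.8% of them had no R1 count. The 5 tRNA-Und features match RefSeq pseudogenes on the same chromosomes. Among the members and among the named pseudogenes, 1 locus held most of the counts. Among the members it was tRX-Lys-NNN-3-1, with 324569 of 373976 R1 counts in replicate 1, and among the named pseudogenes it was tRNA-Lys-TTT-14-1, with 2118572 of 2132892.

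Levels were compared between features as R1 CPM per kilobase of feature length. In each of the 17 isotypes that have a tRX feature, the median level of the lookalikes lay below that of the named genes, and in 8 of them it was 0. For lysine the medians were 628 for 6 lookalikes and 5584 for 40 named genes. For alanine they were 0 for 5 lookalikes and 201 for 45 named genes, and for arginine 0 for 2 lookalikes and 6368 for 31 named genes. Against only those named genes that RefSeq does not list as tRNA, a set chosen after the data were seen, the lookalikes' median was lower in 10 of 15 isotypes. The features are not replicates of each other, so these counts are given without a test.

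**Figure D2:**
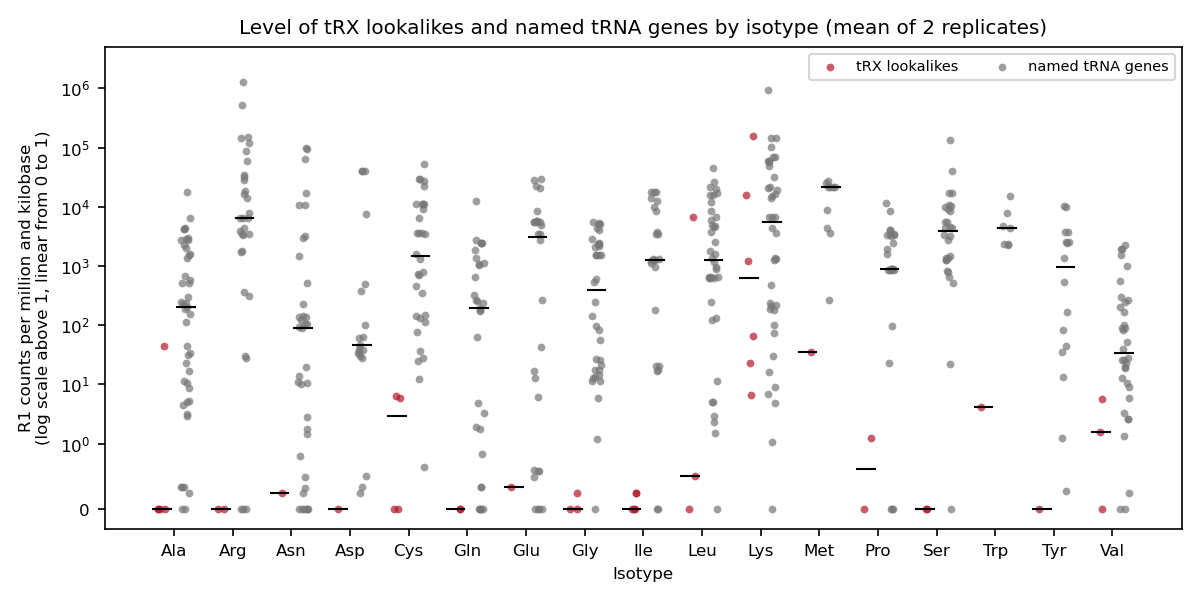
R1 level in CPM per kilobase (mean of 2 replicates, logarithmic above 1) of each tRX lookalike (red, left) and each named tRNA gene (grey, right) for the 17 isotypes with a lookalike. Black bars are medians, and every lookalike median lies below that of its named genes.

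The lysine lookalike tRX-Lys-NNN-3-1 (chromosome 15, 96327874 to 96327946, plus strand, hg19) had 398 and 260 counts in R2 of replicates 1 and 2, against 324569 and 228980 counts in R1. The raw R1 counts were thus high and the raw R2 counts low in both replicates, but the R1 tables also held more counts in all. In R2 its level was 445 ± 56.4 CPM per kilobase (SD, n = 2), below the named tRNA-Lys median of 466 and at rank 24 of 46. In R1 its level was 155827 ± 4934 (SD, n = 2), 27.9 times the median of named tRNA-Lys genes and second of 46 lysine features after tRNA-Lys-TTT-14-1, which had 945580 ± 21704. It lies in RP11-61O11.1 (ENSG00000275016.4_4), a long non-coding RNA gene of 187106 bases on the same strand, and made up 99.96% of that gene's R1 counts in both replicates. Outside the 73 bases of the lookalike, RP11-61O11.1 held 122 and 133 R2 counts, against 142 and 85 R1 counts.

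The next lookalike, tRX-Lys-NNN-4-1 (chromosome 7, 96770885 to 96770957, minus strand), had 1497 and 952 counts in R2, against 29757 and 25536 in R1. Its R1 level of 15798 ± 1685 CPM per kilobase (SD, n = 2) was 2.83 times the named tRNA-Lys median. It lies opposite to SDHAF3, whose reads cannot be told apart from it without strand, and which encodes an assembly factor of succinate dehydrogenase. SDHAF3 had 29829 and 25636 R1 counts, of which 72 and 100 remained outside the lookalike. tRX-Lys-NNN-1-1 (chromosome 16, 2977662 to 2977734, plus strand) had 131 and 69 counts in R2, against 2690 and 1595 in R1. It lies within FLYWCH1, which encodes a zinc finger protein, and held 97.4% and 93.7% of that gene's R1 counts.

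The other 3 lysine lookalikes were sparse. tRX-Lys-NNN-2-1 had 8 and 8 counts in R2, against 138 and 105 in R1. It lies within CAPN7, which encodes a calpain-type protease, and 92 and 145 R1 counts of CAPN7 lay outside it. tRX-Lys-NNN-5-1 had 46 and 36 counts in R2, against 52 and 40 in R1. It made up 98.1% and 93.0% of the R1 counts of the surrounding SCIN, which encodes an actin-severing protein. tRX-Lys-NNN-6-1 had 24 and 23 counts in R2, against 10 and 12 in R1, and lies within WWC1 on the opposite strand. All lysine lookalikes together took 0.0732% and 0.0664% of the R2 counts of lysine features in replicates 1 and 2, but 8.22% and 8.03% of their R1 counts.

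Among the other isotypes, the leucine lookalike tRX-Leu-NNN-1-1 (chromosome 9, 123117353 to 123117435, minus strand) was the only one above the median of its named genes. It had 9239 and 5606 counts in R2, against 16248 and 10848 in R1, and overlaps no other listed feature. Its R1 level was 6681 ± 472 CPM per kilobase (SD, n = 2), 5.26 times the median of named tRNA-Leu genes, and 9 of 38 named tRNA-Leu genes lay above it. The highest of these was tRNA-Leu-AAG-1-2, at 45190 ± 5432 (SD, n = 2). The other 2 leucine lookalikes had 2 R1 counts between them. In R2, where tRX-Lys-NNN-3-1 lay below its named median, tRX-Leu-NNN-1-1 and tRX-Lys-NNN-4-1 were the 2 members above theirs.

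tRX-Ala-NNN-1-1 had 11 and 8 counts in R2, against 98 and 61 in R1, and its R1 level of 44.3 ± 5.32 CPM per kilobase (SD, n = 2) lay below 27 of 45 named tRNA-Ala genes. Its partner by name, tRX-Ala-NNN-1-2, had 0 counts in all 4 tables, although both lie 7250 bases from a tRNA-Ile-AAT-7 gene. Those genes differed as well, tRNA-Ile-AAT-7-1 beside tRX-Ala-NNN-1-1 having 35007 and 28086 R1 counts and tRNA-Ile-AAT-7-2 beside tRX-Ala-NNN-1-2 having 2288 and 2080. tRX-Met-NNN-1-1 had 12 and 4 counts in R2, against 74 and 53 in R1, and lay below all 10 named tRNA-Met genes. tRX-Cys-NNN-4-1 had 9 and 8 counts in R2, against 15 and 11 in R1, and lay below 31 of 32 named tRNA-Cys genes. The highest named genes of these isotypes had R1 counts of 33709 and 28411 (tRNA-Ala-TGC-3-1), 56494 and 39689 (tRNA-Met-CAT-1-1) and 101853 and 83760 (tRNA-Cys-GCA-2-2).

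Below the minimum, the highest tRX features were tRX-Val-NNN-3-1 and tRX-Cys-NNN-2-1, each with 8 and 11 R1 counts in replicates 1 and 2. tRX-Trp-NNN-1-1 had 6 and 8, whereas the lowest of the 7 named tRNA-Trp genes stood at 2262 CPM per kilobase. tRX-Val-NNN-1-1 had 1 and 4 R1 counts and tRX-Pro-NNN-1-1 had 2 and 2. The 4 features named tRX-Und had 0 counts in every table. No ratio of the mates is given for such counts. Their isotypes' highest named genes had R1 counts of 3134 and 4559 (tRNA-Val-TAC-2-1), 30010 and 23402 (tRNA-Trp-CCA-2-1) and 19409 and 20366 (tRNA-Pro-TGG-3-4).

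The suppressor feature tRNA-Sup-TTA-1-1 (chromosome 17, 58863593 to 58863663, plus strand) was counted in all 4 tables at a low level. It had 392 and 265 counts in R2, against 284 and 273 in R1, so the ranges of the raw R2 and R1 counts overlapped. Scaled to the table totals, it had 34.9 and 30.1 CPM in R2, against 10.2 and 13.3 CPM in R1, which did not overlap. A rise on that scale is not particular to this feature, since 91.2% of all 18237 features tested were called higher in R2 by edgeR. With the TMM scaling used below, its log2 fold change of R2 over R1 was 0.46 (adjusted p = 0.0908 by edgeR). Its R1 level was 165 ± 30.7 CPM per kilobase (SD, n = 2), with 343 of the 543 named tRNA genes above it. It lies within BCAS3, a gene of 715386 bases that encodes a cytoskeletal protein and holds no other tRNA feature, and it made up 54.0% and 36.0% of the R2 counts of BCAS3 in replicates 1 and 2. In R1 it made up 17.3% in both.

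The undetermined features were near the detection limit. tRNA-Und-NNN-4-1 had 5 and 5 counts in R2, against 5 and 4 in R1. tRNA-Und-NNN-1-1 had 0 and 0 in R2, against 4 and 8 in R1. tRNA-Und-NNN-3-1 had 4 and 4 in R2, against 1 and 1 in R1, although it lies 1149 bases from tRNA-Glu-TTC-4-2, which had 6019 and 6040 R1 counts. tRNA-Und-NNN-5-1 had 1 R1 count in replicate 1 and none elsewhere, and tRNA-Und-NNN-2-1 had 0 in all tables.

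Members near a named tRNA gene were not those with the most counts. Of the 53 members, 19 lie within 10000 bases of a named tRNA gene, and 3 of these 19 reached the mean of 10 counts, against 8 of the other 34. The 4 members with the most R1 counts all lie farther away, at 222940 bases or more. On chromosome X, tRX-Ile-NNN-1-1, tRX-Ile-NNN-1-2 and tRX-Ile-NNN-2-1 each lie 340 bases from a tRNA-Ile-GAT-1 gene. They had 1, 1 and 0 R1 counts in replicate 1, while the genes beside them had 39, 33 and 41. Chromosomes 6 and 1 held the most members, 8 and 7 of 53, a count not set against the number of all tRNA features there.

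The reads of some members were also counted in the features around them. Of the 53, 33 overlap at least 1 other listed feature, forming 35 pairs, of which 18 are on the same strand and 17 on opposite strands. In 22 of the 35 pairs the member had a count, and in all 22 the overlapping feature held at least that count in all 4 tables. For sparse members this could hold under any counting rule, as for tRX-Val-NNN-1-1 in TULP4 (1 against 400 R1 counts in replicate 1). It tells most where the member is nearly all of the overlapping count, as for tRX-Lys-NNN-3-1 and tRX-Lys-NNN-4-1. Of these 22 pairs, 11 are on opposite strands. No member overlaps another tRNA feature or a piRNA.

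The ratio of the mates was then examined, the R2 and R1 reads being the 2 ends of the same fragments. The members' mate ratios ranged from 0.114% to 240%. For tRX-Lys-NNN-3-1 the R2 count was 0.123% of R1 in replicate 1 and 0.114% in replicate 2, the lowest of the 305 and 297 tRNA features with at least 1000 R1 counts and the second lowest of all 464 and 516 such features. tRX-Lys-NNN-4-1 had 5.03% and 3.73%, tRX-Lys-NNN-1-1 had 4.87% and 4.33%, and tRX-Lys-NNN-2-1 had 5.80% and 7.62%. tRX-Ala-NNN-1-1 had 11.2% and 13.1%, and tRX-Met-NNN-1-1 16.2% and 7.55%. Higher ratios were found for tRX-Leu-NNN-1-1 (56.9% and 51.7%), tRX-Cys-NNN-4-1 (60.0% and 72.7%), tRX-Lys-NNN-5-1 (88.5% and 90.0%), tRNA-Sup-TTA-1-1 (138% and 97.1%) and tRX-Lys-NNN-6-1 (240% and 192%). The other 42 members had too few counts for a ratio.

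**Figure D3:**
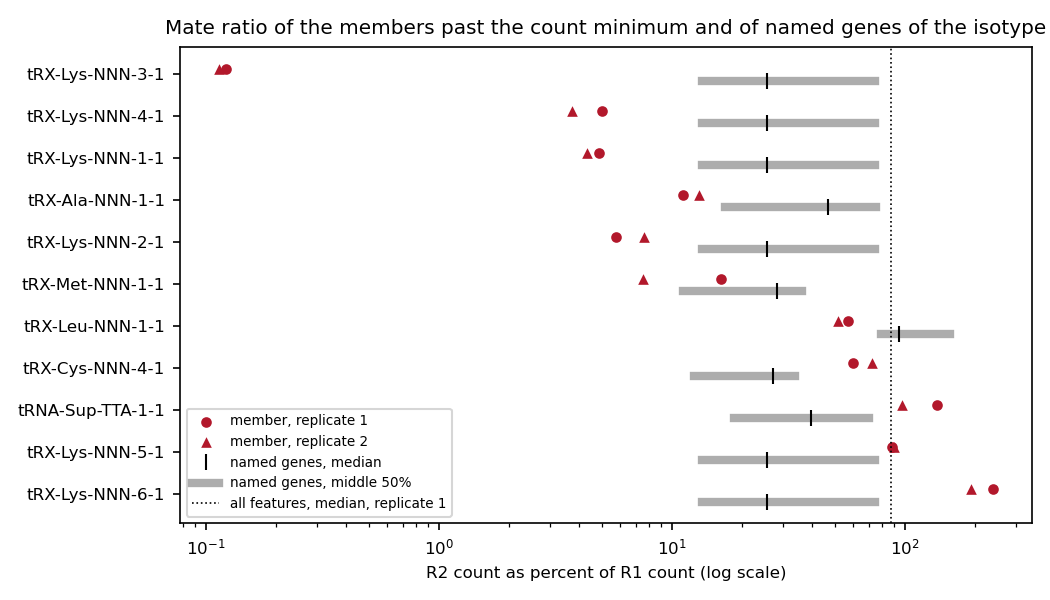
R2 count as a percent of the R1 count (log axis) for the 11 members with a mean of at least 10 counts, in replicate 1 (circles) and replicate 2 (triangles), with the median (bar) and middle 50% (grey) of the named genes of the same isotype, or of all named genes for tRNA-Sup-TTA-1-1. The dotted line is the median of all features in replicate 1, 87.5%, and tRX-Lys-NNN-3-1 lies at 0.123% and 0.114%.

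The features as a whole gave the scale for these ratios. Over the 18237 features with a mean of at least 10 counts, the median R2 count was 87.5% of R1 in replicate 1 and 84.5% in replicate 2. Over the named tRNA genes it was 40.3% and 38.4%. Over the table totals it was 40.3% and 42.7%. Since tRNA took 60.0% and 56.4% of all R1 counts, the fold changes given next were scaled with TMM, which puts the median log2 fold change of all features at 0.0084. Scaling to table totals puts it at 1.04.

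The mate contrast was tested with edgeR's quasi-likelihood test across all 18237 features, with the library as a block. Of the 11 members tested, 7 were lower in R2 at a Benjamini-Hochberg adjusted p under 0.05 and 1 was higher. Over all features 5.32% were called lower and 2.39% higher, but over the named tRNA genes 69.6% were called lower and 5.69% higher, so the members' 63.6% lower is close to what named tRNA genes showed. With table totals as the scale, 6 members were lower and 4 higher by edgeR, against 39.4% lower and 38.5% higher of the named tRNA genes and 2.70% lower and 91.2% higher of all features. tRX-Lys-NNN-3-1 had a log2 fold change of R2 over R1 of -9.50 (SE 0.104, adjusted p = 1.33e-05 by edgeR). For tRX-Lys-NNN-4-1 it was -4.30 (SE 0.113, adjusted p = 4.95e-05) and for tRX-Lys-NNN-1-1 -4.21 (SE 0.0542, adjusted p = 1.33e-05). These SEs are back-calculated from edgeR's F statistic and can be too small. That of tRX-Lys-NNN-1-1, with 131 and 69 R2 counts, is smaller than counting error alone would give. tRX-Lys-NNN-2-1, tRX-Ala-NNN-1-1 and tRX-Met-NNN-1-1 had -3.69, -2.83 and -2.75 and passed as well (adjusted p = 9.42e-05, 0.000201 and 0.00162). The single higher member was tRX-Lys-NNN-6-1 at 1.31 (adjusted p = 0.0114 by edgeR), a call on 10 to 24 counts that DESeq2 did not make (adjusted p = 0.99995). tRNA-Sup-TTA-1-1 at 0.46 did not pass (adjusted p = 0.0908 by edgeR), nor did tRX-Lys-NNN-5-1 at 0.05 and tRX-Cys-NNN-4-1 at -0.39. With table totals the first 2 did pass, tRNA-Sup-TTA-1-1 at 1.51 (adjusted p = 3.52e-66 by edgeR) and tRX-Lys-NNN-5-1 at 1.11 (adjusted p = 1.24e-06 by edgeR), while tRX-Cys-NNN-4-1 stood at 0.65 and did not (adjusted p = 0.155). tRX-Leu-NNN-1-1 had -0.66 (adjusted p = 0.00225 by edgeR), but its direction rests on the scaling, since with table totals it stood at 0.39 (adjusted p = 0.0155). Without the block no feature passed, neither a member nor a named gene, and 6 members were lower and 1 higher at an unadjusted p under 0.05 by edgeR. The mates of a fragment are not independent reads and only 2 libraries stand behind the test.

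Each of the 11 members was set against named genes of the same isotype, or against all named genes for tRNA-Sup-TTA-1-1. Of the 11, 7 had a lower log2 ratio of R2 to R1 than the median named gene and 4 a higher one. By definition a median has as many named genes below it as above, so 7 of 11 is not far from an even split. The median difference was -1.25. It was -0.78 without replicate 2, -1.52 without replicate 1 and -0.80 without the tRX-Lys features, where 3 of 5 members lay below. The lysine lookalikes lay on both sides. tRX-Lys-NNN-3-1 lay below all 37 named tRNA-Lys genes with a mean of at least 10 counts, with a difference of -7.76 on the log2 scale from their median, whereas tRX-Lys-NNN-6-1 lay above 36 of them. tRX-Lys-NNN-4-1 and tRX-Lys-NNN-1-1 each had 7 named tRNA-Lys genes below them. Low mate ratios were therefore not particular to lookalikes. By edgeR, the named gene tRNA-Phe-GAA-9-1 had a log2 fold change of R2 over R1 of -10.05, lower than the -9.50 of tRX-Lys-NNN-3-1. tRNA-Lys-TTT-3-1, tRNA-Lys-TTT-3-3 and tRNA-Lys-TTT-3-5 had 0.817%, 0.588% and 0.591% in replicate 1, while tRNA-Lys-TTT-3-2 and tRNA-Lys-TTT-3-4, copies that share their number in the naming scheme, had 34.5% each. tRNA-Lys-CTT-5-1 and tRNA-Lys-CTT-6-1 resembled tRX-Lys-NNN-4-1 in both mates, with 962 and 1079 R2 counts in replicate 1, against 29312 and 28513 R1 counts. Outside lysine, tRX-Cys-NNN-4-1 lay above 29 of 31 named tRNA-Cys genes and tRNA-Sup-TTA-1-1 above 434 of all 457.

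**Figure D4:**
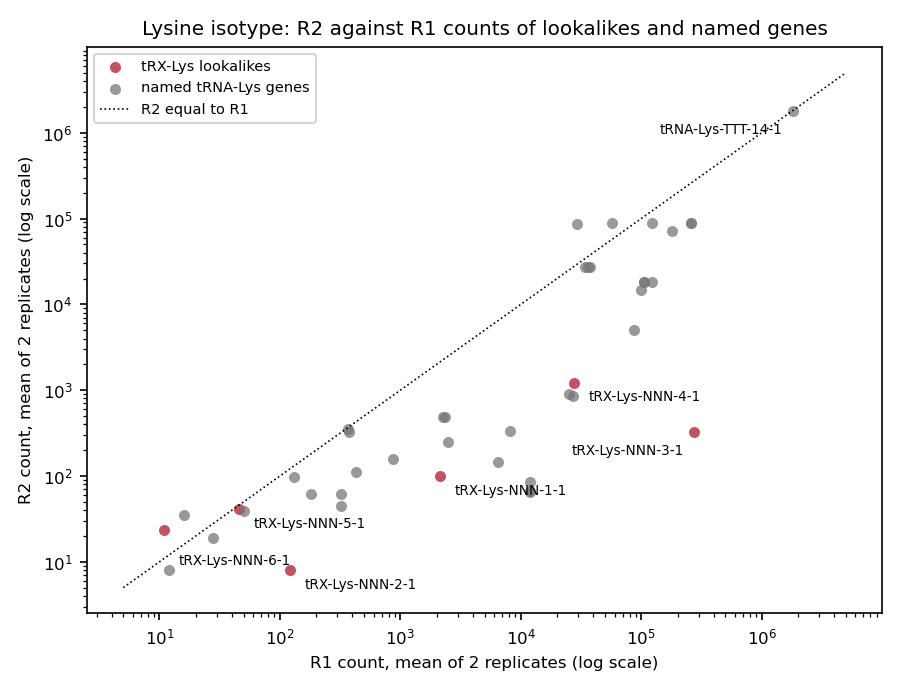
R2 count against R1 count (means of 2 replicates, both axes logarithmic) of the 6 tRX-Lys lookalikes (red) and 37 named tRNA-Lys genes (grey) with a mean of at least 10 counts, with a dotted line where the mates are equal. tRX-Lys-NNN-3-1 lies farthest below the line, and tRNA-Lys-TTT-14-1, the highest point, lies on it.

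The mate ratios at 3 lysine lookalikes, between 3.73% and 7.62%, lay apart from those of the features around them. Outside tRX-Lys-NNN-4-1, SDHAF3 had 70 and 85 R2 counts, against 72 and 100 R1 counts, or 97.2% and 85.0%. Outside tRX-Lys-NNN-1-1, FLYWCH1 had 63 and 99, against 71 and 108, or 88.7% and 91.7%, and CAPN7 outside tRX-Lys-NNN-2-1 had 88.0% and 82.1%. These values lie near the median of all features. For tRNA-Sup-TTA-1-1 the order was the other way round, with 138% and 97.1% inside it and 24.6% and 36.1% in the rest of BCAS3.

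How far the replicates differed varied among the members, also among those with many counts. In R1 CPM, the ratio of replicate 2 to replicate 1 was 0.956 for tRX-Lys-NNN-3-1 and 1.16 for tRX-Lys-NNN-4-1. It was 0.905 for tRX-Leu-NNN-1-1, 0.804 for tRX-Lys-NNN-1-1 and 1.30 for tRNA-Sup-TTA-1-1. Over the 11 members it ranged from 0.804 for tRX-Lys-NNN-1-1 to 1.63 for tRX-Lys-NNN-6-1, which had 10 and 12 counts. The order of the 4 highest members was the same in R1 of both replicates.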

How the data were processed

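The values the authors deposited are raw counts of reads per feature, with a table for either mate of a library. The submitters' processing notes name hg19 (GRCh37), bedtools 2.24.0 and Bowtie2 2.3.5.1; alignment options and strand are not stated there. Each table had 741091 lines, and 13 repeated lines were dropped. 1 was added to tRNA and piRNA starts, which are 0-based. The replicates differed by more than sampling noise (chi-square 235 per degree of freedom over 473 tRNA features). Levels are CPM per kilobase, CPM being scaled to the table total. RefSeq (GRCh38.p14) was used only for biotypes, matched by symbol and chromosome. The mate contrast used edgeR 4.0.16 (TMM, replicate as a block because both mates come from 1 library, mean count of at least 10) in R 4.3.3, with DESeq2 1.42.0 as an alternative; SEs were derived from edgeR's F statistic. The code was tested on simulated data. Tables and plots were made with matplotlib 3.10.9, scipy 1.17.1, pandas 2.3.3 and numpy 2.4.6 under Python 3.11.15. Log2 ratios had a pseudocount of 0.5. Named in the text are all tRNA-Und and tRNA-Sup features, the 15 highest tRX features, the 5 highest and 5 lowest mate ratios, the highest named gene of each isotype among those 15, and the features around the 10 highest members. Other tRX, tRNA-Lys and neighbouring genes, and tRNA-Phe-GAA-9-1, were chosen after their values were seen. Members and lists were chosen with earlier results of these data known. No base sequence of a member was used here.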

Additional observations from a re-analysis of the deposited data

How the results depend on the processing

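No test between conditions was possible with 1 group, and the mate contrast compares the 2 ends of the same fragments. Leaving out either library cannot shift a mean of 2 beyond its SD, so it says nothing of stability of the shares: the tRX share was 2.231 to 2.303% then, the tRNA-Und share 6.57e-05 to 0.000112% and the tRNA-Sup share 0.0017 to 0.00235%. The tRX share of tRNA counts was 0.152% in R2, 1.64% for the sum of mates, 0.318% without tRX-Lys-NNN-3-1 and 1.32% of all listed features. The tRNA-Und share was 0.000156% in R2 and 5.13e-05% of all features, and the tRNA-Sup share 0.0055% in R2, 0.00305% for the sum and 0.00117% of all features. The lookalikes' median was lower in 4 of 5 isotypes with a minimum mean count of 10, and in 10 of 15, with 12 members above, against named genes not listed as tRNA in RefSeq. Members lower and higher in R2 by edgeR numbered 0 and 0 without the replicate block (6 and 1 at an unadjusted p under 0.05). The higher calls were 4 with table totals and 4 with tRNA features only, and 0 with DESeq2, with minimum mean counts of 1 or 50 and with no minimum. At an unadjusted p under 0.05 DESeq2 had 0 higher, and edgeR had 2 with the minimum of 10, 3 with a minimum of 1, 1 with 50 and 3 with none. The median log2 difference from named genes was -0.66 at a minimum of 1, -1.84 at 50, -0.80 with a pseudocount of 5, and between -1.52 and -0.78 when either replicate was left out. The cause of none of these changes was tested. tRX-Leu-NNN-1-1 turned to 0.39 with table totals and 0.41 with tRNA features only. Of the fold changes of single members refitted with a test, 53 stayed on their side of the threshold, 13 lost the call and 4 gained it (tRNA-Sup-TTA-1-1 and tRX-Lys-NNN-5-1, each with table totals and with tRNA features only); with no minimum tRX-Leu-NNN-1-1 (adjusted p = 0.0887 by edgeR) and tRX-Met-NNN-1-1 (0.104) were among those lost. The pairing of mates by library comes from the files themselves. Depth limits the 42 members below a mean of 10 counts, for which no single ratio is given. Only the settings with a minimum of 1 (19 members) or with none (31 members) took in some of them.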
